A study of Homo sapiens with 12 samples.

Results

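The 7 genes described here write, maintain or erase methylation of cytosine in DNA. They are the methyltransferases DNMT1, DNMT3A and DNMT3B, the DNMT1 partner UHRF1 and the dioxygenases TET1, TET2 and TET3. They were taken by gene name and are 7 of 56537 gene names in the transcript table. Their transcripts were those that matched a reference transcript exactly (class code =) or shared a splice junction with it (class code j), 131 of 286562 such transcripts. HCT116, an established human colorectal cancer cell line, was sampled at 21% oxygen (0 h) and after 1, 2 and 24 h at 1% oxygen, with 3 biological replicates a time point and 12 libraries of polyadenylated RNA in all. No cells kept at 21% oxygen for a further 24 h were analysed here, so low oxygen and time in culture cannot be told apart at 24 h. Abundance is given as FPKM, a fragment count scaled by transcript length and by the mapped fragments of the library, summed over the transcripts of a gene name.

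Methyl groups on CpG cytosines are copied to the new DNA strand after each round of replication. UHRF1 binds the hemimethylated site behind the fork, marks histone H3 with ubiquitin and so brings in DNMT1, the maintenance methyltransferase. DNMT3A and DNMT3B methylate sites without a methylated template. TET enzymes oxidise 5-methylcytosine to 5-hydroxymethylcytosine and further products, which base excision repair can replace with plain cytosine, and they use oxygen, iron(II) and 2-oxoglutarate to do so.

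A gene was called changed at an absolute log2 fold change above 1 with a limma adjusted p under 0.01, on log2(FPKM + 0.5), where p-values were adjusted over 16680 gene names. At 24 h relative to 0 h, 1 of the 6 genes tested was called, and it was UHRF1, which fell. Among all gene names 18.3% were called, 9.51% as lower. With an adjusted p under 0.05 alone, 3 of the 6 were lower (UHRF1, DNMT1, DNMT3B) and 2 were higher (DNMT3A, TET2), beside 30.3% lower and 25.0% higher among all gene names. The median log2 fold change of all gene names was -0.05. TET1 exceeded an FPKM of 0.5 in 2 libraries, under the minimum of 3, and was not tested.

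**Figure D1:**
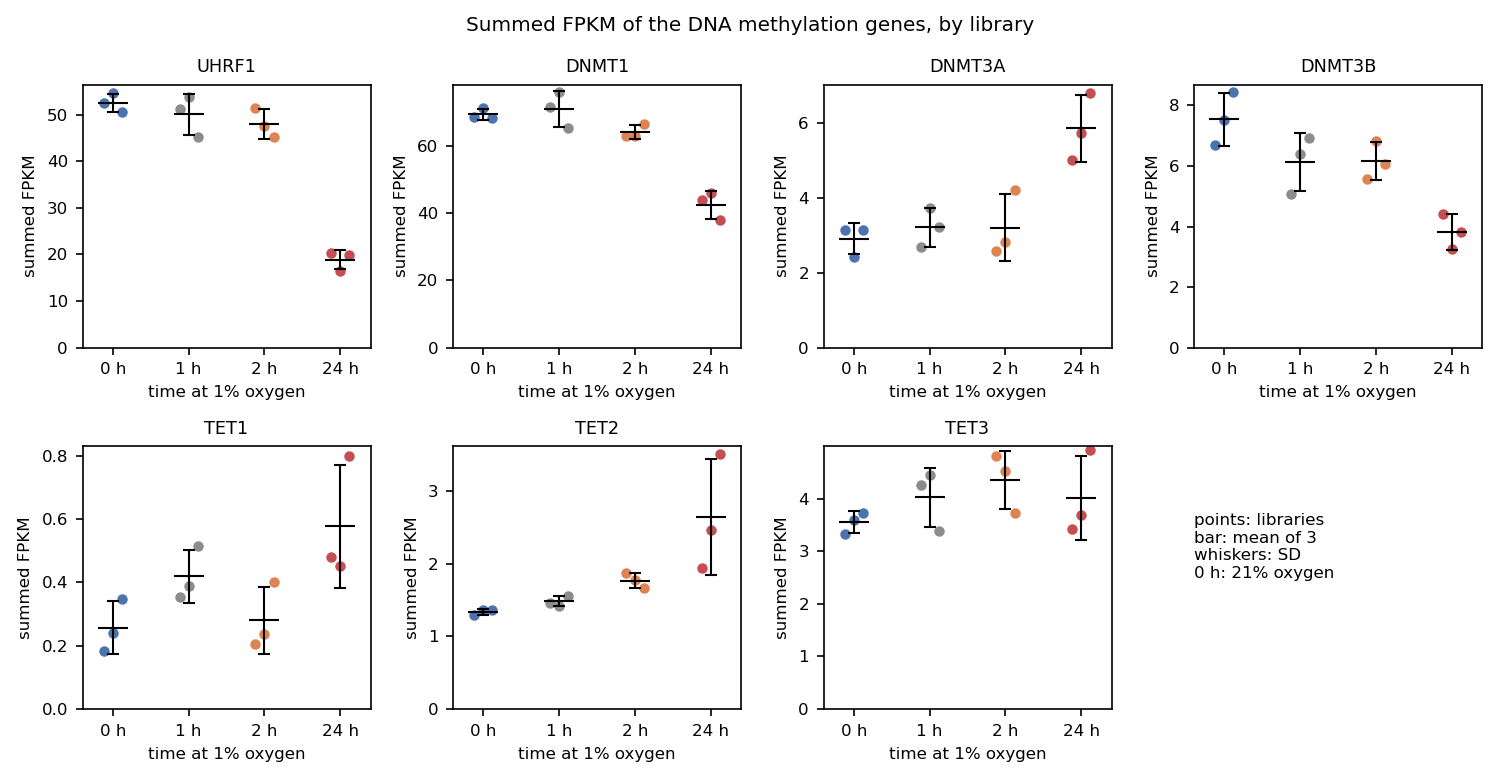
Summed FPKM (y axis, linear, from 0) of each gene in every library by time at 1% oxygen (x axis), with the mean of 3 libraries and its SD. UHRF1 and DNMT1 at 24 h lie below every earlier library, DNMT3A at 24 h above every earlier library, and TET3 shows overlapping ranges throughout.

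The levels at 0 h ran from DNMT1 and UHRF1, at 69.3 ± 1.59 and 52.6 ± 1.96 FPKM (SD, n = 3), down to TET1 at 0.257 ± 0.083. Between them stood DNMT3B at 7.54 ± 0.874, TET3 at 3.55 ± 0.207, DNMT3A at 2.91 ± 0.414 and TET2 at 1.34 ± 0.041. No neighbours in this order had overlapping ranges at 0 h. FPKM is scaled by transcript length, so these levels can be set side by side. At 24 h the order was DNMT1, UHRF1, DNMT3A, TET3, DNMT3B, TET2 and TET1. TET3 overlapped DNMT3B, and DNMT3B overlapped TET2, in that order.

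The deposited values hold no read counts, so no counting interval is given. Transcripts under 300 bases, where FPKM is inflated by the length scaling, held between 57.0% and 87.6% of the summed FPKM of a library. That share enters any rescaling to TPM, in which each library sums to 1000000. Under TPM the median log2 fold change of all gene names at 24 h was -0.67. Of 8 genes known to be induced by hypoxia, such as BNIP3 and ANKRD37, 8 were called higher at 24 h, with a median log2 fold change of 3.39. Of 9 epithelial markers 8 passed the filter on low values. No blood, immune or endothelial marker exceeded 0.5 FPKM in any library. COL1A1 did so as the only 1 of 6 fibroblast markers.

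UHRF1 (ENSG00000276043, chr19:4903092-4962165 on the plus strand, GRCh37) was the gene with the largest difference of the 7. Its 0 h libraries held 52.5, 54.6 and 50.7 FPKM, its 1 h libraries 51.2, 53.9 and 45.2, and its 2 h libraries 51.5, 47.5 and 45.2. Its 24 h libraries held 20.3, 16.5 and 19.9. All 24 h libraries were far below all 9 earlier ones, whose ranges overlapped each other. The log2 fold change at 24 h was -1.46 ± 0.10 (SE), a level 2.75-fold lower (limma, adjusted p = 7.74e-07), at percentile 3.11 of all gene names. At 1 h and 2 h it was -0.072 ± 0.104 and -0.13 ± 0.10, with adjusted p = 0.996 and 0.581 by limma.

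The RefSeq promoter window that lies first along the chromosome is shown for UHRF1 because it holds a perfect match to the letters TTTCCCGC, a form of the binding site of E2F factors, which drive genes of DNA replication. The window spans 250 bases before to 50 after the start, chr19:4909251-4909550 on the plus strand of GRCh38.p14, a different build from the one of the expression files. Capitals mark the match, which is on the other strand.
UHRF1 promoter: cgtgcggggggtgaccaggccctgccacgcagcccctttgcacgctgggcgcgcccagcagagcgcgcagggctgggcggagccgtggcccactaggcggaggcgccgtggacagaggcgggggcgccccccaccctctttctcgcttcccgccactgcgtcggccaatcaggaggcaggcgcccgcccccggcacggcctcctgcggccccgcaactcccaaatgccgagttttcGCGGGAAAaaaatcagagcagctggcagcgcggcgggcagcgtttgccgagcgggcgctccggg

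UHRF1 has 3 such windows, and 2 of them hold TTTCCCGC or the related TTTCGCGC on either strand. The single window of DNMT1 holds TTTCGCGC. No window of DNMT3B, which was also lower at 24 h, or of DNMT3A, TET1, TET2 or TET3 holds either. Of 35116 promoter windows of this length 2.11% hold at least 1 of these letter strings. A match is a description of the letters and says nothing about binding in these cells.

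Single transcripts of UHRF1 moved in different directions. The gene had 8 transcripts past the filter, and 4 of these passed the transcript test at 24 h (limma, adjusted p under 0.05 over 62162 transcripts), 2 lower and 2 higher. Over the 7 genes 9 of 34 transcripts passed, 7 lower and 2 higher, beside 26.7% of all transcripts. The leading transcript, ENST00000262952 of 3897 bases, held 46.2, 41.6 and 42.3 FPKM at 0 h and 12.6, 11.7 and 12.2 at 24 h, a log2 fold change of -1.79 ± 0.13 (limma, adjusted p = 8.28e-06). A transcript model related to ENST00000592666, of 6520 bases, went from 1.21 ± 0.113 FPKM to 0.045 ± 0.079 and was also called lower (-1.65 ± 0.32).

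The transcripts called higher start at other positions than the leading one. ENST00000398240, of 4061 bases, held 0.644, 0.193 and 0.259 FPKM at 0 h and 1.35, 1.37 and 1.92 at 24 h, a log2 fold change of 1.27 ± 0.29 (limma, adjusted p = 0.00723). ENST00000591699, of 3229 bases, held 0.724, 0.229 and 0.256 FPKM at 0 h and 1.18, 1.12 and 1.00 at 24 h (0.87 ± 0.28, limma adjusted p = 0.0375). The ranges of both were apart between 0 h and 24 h. The call of ENST00000591699 was lost with 5 of the 6 libraries of the contrast left out in turn, with limma adjusted p between 0.0615 and 0.125. Both calls were lost under TPM, with limma adjusted p = 0.152 for ENST00000398240 and 0.399 for ENST00000591699.

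Isoform usage was tested as the ratio of each transcript past the filter to the other transcripts of its gene past the filter. No scaling of a whole library alters this ratio except through the pseudocount. The percent shares given beside it are of the full gene sum, with transcripts under the filter included. UHRF1 was the 1 gene of 5 testable whose usage was called at 24 h (adjusted p under 0.05 over 10680 genes), beside 27.6% of all genes. Its adjusted p was 0.000958 by limma, and it stayed between 0.000289 and 0.0338 over every alternative run. The leading transcript carried 88.1, 76.1 and 83.4% of the summed FPKM of UHRF1 at 0 h and 61.8, 71.2 and 61.2% at 24 h. Its share at 1 h and 2 h was 76.5 ± 6.36% and 75.8 ± 2.37% (SD, n = 3). ENST00000398240 carried 0.698 ± 0.466% in the 0 h libraries and 2.59 ± 0.80% after 1 h, then 1.81 ± 0.366% after 2 h and 8.20 ± 1.49% after 24 h.

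All UHRF1 transcripts other than the leading one together held 9.23 ± 3.45 FPKM at 0 h and 6.74 ± 1.73 at 24 h, with overlapping ranges. The second transcript by level, ENST00000591733, ranged from 1.03 to 7.07 FPKM among the 0 h libraries alone, a wider relative spread than that of the gene total. ENST00000398240 and ENST00000591699 belong to separate start-site groups, both other than that of the leading transcript, and no transcript of UHRF1 was matched to a GENCODE type. Over the 5 genes, 11 of 33 transcripts had shares whose ranges did not overlap between 0 h and 24 h, beside 26.9% among all such transcripts. An exact permutation test of 3 against 3 libraries cannot go below p = 0.1, so no single share can pass 0.05.

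DNMT1 (ENSG00000130816, chr19:10244018-10341962 on the minus strand, GRCh37) had the highest level of the 7 genes. Its libraries held 68.6, 71.1 and 68.2 FPKM at 0 h, 71.4, 76.0 and 65.2 at 1 h and 62.9, 62.8 and 66.5 at 2 h. At 24 h they held 43.8, 45.9 and 37.8. Each 24 h library was below each earlier one. The log2 fold change at 24 h was -0.70 ± 0.09, a 1.63-fold lower level, which passed the p threshold and not the fold threshold (limma, adjusted p = 5.07e-05). It stood at percentile 19.0 of all gene names. Under TPM it was -1.54 and called. The table places S1PR2 and CTD-2369P2.2 at the same locus, so reads may be divided between them.

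The DNMT1 promoter window is printed for comparison with that of UHRF1. It lies at chr19:10194904-10195203 on the minus strand of GRCh38.p14 (RefSeq). Capitals mark 1 match to TTTCGCGC on the other strand.
DNMT1 promoter: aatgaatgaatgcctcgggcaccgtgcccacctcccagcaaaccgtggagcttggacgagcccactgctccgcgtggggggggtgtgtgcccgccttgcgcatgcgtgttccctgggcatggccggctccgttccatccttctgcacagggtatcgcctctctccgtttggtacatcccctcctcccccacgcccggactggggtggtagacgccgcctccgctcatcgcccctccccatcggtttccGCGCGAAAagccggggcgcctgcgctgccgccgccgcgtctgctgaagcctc

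Of 15 DNMT1 transcripts past the filter 4 were called lower and none higher, beside 26.7% of all transcripts called in either direction. DNMT1-201 (ENST00000340748), which encodes 1616 residues, held 26.8, 28.6 and 31.0 FPKM at 0 h and 16.4, 15.7 and 17.5 at 24 h (-0.78 ± 0.13, limma adjusted p = 0.00126). DNMT1-227 (ENST00000592705), annotated as a target of nonsense-mediated decay, held 15.0, 14.6 and 10.2 FPKM at 0 h and 7.84, 7.95 and 5.60 at 24 h (-0.85 ± 0.22, limma adjusted p = 0.0158). ENST00000540357 and a 4018-base model related to DNMT1-227 were also called lower, at -0.90 ± 0.30 and -1.01 ± 0.33. Of these, DNMT1-201 alone kept its call with every single library left out in turn. The share of DNMT1-201 was 41.6 ± 3.44% at 0 h and 39.3 ± 6.27% at 24 h. The share of DNMT1-227 was 19.1 ± 3.69% and 16.7 ± 1.65%. Both pairs of ranges overlapped. In 3 of the 15 transcripts the shares of 0 h and 24 h did not overlap, beside 26.9% among all transcripts compared in this way. All 3 are short, annotated as retained introns and named here after their values were seen. The share went from 2.01 ± 1.94 to 4.79 ± 0.616% for ENST00000586667 (714 bases), from 1.94 ± 0.522 to 3.45 ± 0.975% for ENST00000589351 (672 bases) and from 0.771 ± 0.032 to 0.522 ± 0.229% for ENST00000587197 (809 bases). None of the 3 was called by its level, and usage of DNMT1 was not called (limma, adjusted p = 0.264, between 0.0135 under TPM and 0.531 over the alternatives).

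The 2 genes of maintenance methylation were lower at the same time as genes of DNA replication. Of 18 S-phase genes, 14 were called lower at 24 h and none higher, with a median of -1.38, beside 9.51% lower and 8.76% higher among all gene names. The 5 with the largest change were CCNE2 (-2.49), a cyclin of S-phase entry, and GINS2 (-1.94), MCM4 (-1.77), MCM5 (-1.63) and CDC45 (-1.59), all of the replicative helicase. PCNA (-1.46), the sliding clamp, is named because it also binds DNMT1 and is on the list of its partners. TYMS, which makes thymidylate, stood at -0.65 and was not called. The FPKM of the 18 genes summed to between 1993 and 2031 in the 0 h libraries and between 828 and 925 in the 24 h libraries. The part of replication genes in the values of UHRF1 and DNMT1 was not tested. In bulk RNA, fewer cells of a kind and less RNA per cell cannot be told apart from FPKM alone. The ratio of UHRF1 to DNMT1 was 0.764, 0.767 and 0.743 at 0 h and 0.464, 0.359 and 0.526 at 24 h, so UHRF1 was lower relative to DNMT1 in each 24 h library than in each 0 h library.

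**Figure D2:**
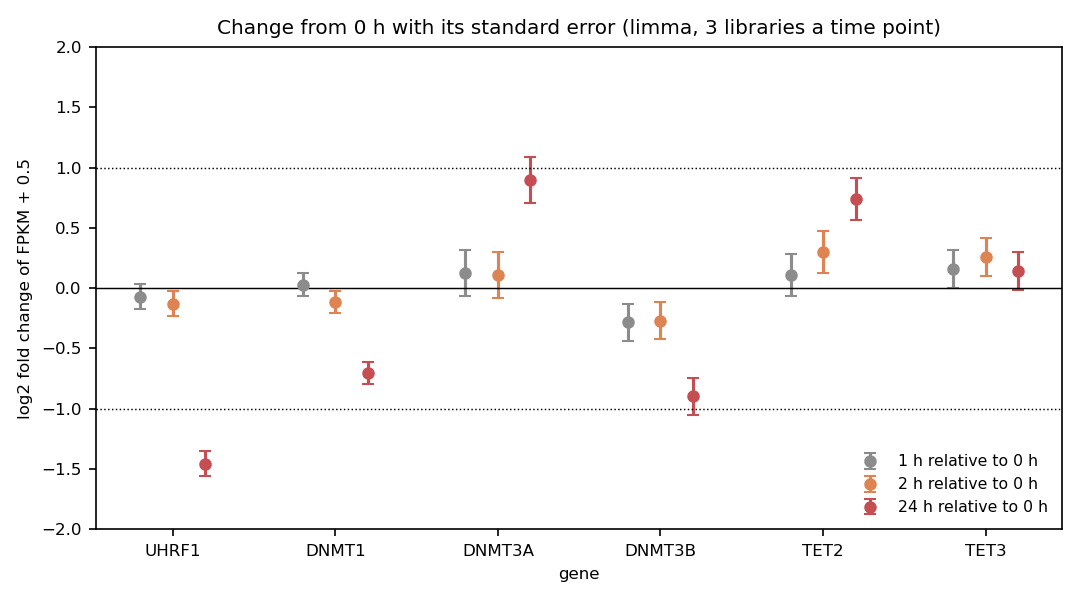
Log2 fold change of FPKM + 0.5 from 0 h (y axis, with its limma standard error) for the 6 tested genes (x axis) at 1, 2 and 24 h. Dotted lines mark the fold threshold, which UHRF1 alone passed at 24 h, at -1.46.

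DNMT3A (ENSG00000119772, chr2:25450724-25565459 on the minus strand, GRCh37) was the methyltransferase that stood higher at 24 h. Its libraries held 3.15, 2.43 and 3.15 FPKM at 0 h, 2.68, 3.73 and 3.24 at 1 h and 2.58, 2.83 and 4.23 at 2 h. At 24 h they held 5.02, 5.75 and 6.82. The 24 h libraries were above all 9 others. On the log2 scale the DNMT3A difference was 0.90 ± 0.19, a 1.86-fold higher level just under the fold threshold (limma, adjusted p = 0.00162). Summed over transcripts past the filter alone it was 1.02 and called. Under TPM it was 0.11 (limma, adjusted p = 0.801), against a median of -0.67 for all gene names.

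Both DNMT3A transcripts past the filter match ENST00000321117 (DNMT3A-202), the long form of 912 residues, and differ in the length of their model. The 4279-base model held 1.18, 0.607 and 1.07 FPKM at 0 h and 1.70, 0.947 and 2.04 at 24 h. The 9461-base model held 0.238, 0.645 and 0.793 FPKM at 0 h and 0.455, 2.67 and 3.48 at 24 h. In both, the ranges of 0 h and 24 h overlapped. Neither was called (limma, adjusted p = 0.216 and 0.110). Replicate 1 of 24 h was low in the longer model, which without that library was called at 1.79 (limma, adjusted p = 0.00688). Usage of DNMT3A was not called (limma, adjusted p = 0.376). It was called without 24 h replicate 1 (0.0462) and under no other alternative run, with 0.814 the highest. The 4279-base model carried 32.1% of DNMT3A FPKM on average at 0 h and 26.7% at 24 h. The 9461-base model carried 19.8% and 35.5%, and the rest lay in transcripts under the filter. The gene total thus separated the groups more clearly than either model did.

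DNMT3B (ENSG00000088305, chr20:31350191-31397165 on the plus strand, GRCh37) stood the other way from DNMT3A at 24 h. Its libraries held 6.69, 7.52 and 8.43 FPKM at 0 h, 5.06, 6.41 and 6.91 at 1 h and 5.58, 6.82 and 6.07 at 2 h. At 24 h they held 4.41, 3.24 and 3.81. All 24 h libraries were below all others. On the log2 scale the DNMT3B difference was -0.90 ± 0.15, a 1.87-fold lower level (limma, adjusted p = 0.000347), which passed the p threshold and not the fold threshold. It was called under TPM at -1.47 and under TPM over transcripts of at least 300 bases at -1.01. The ratio of DNMT3A to DNMT3B was 0.471, 0.323 and 0.373 in the 0 h libraries and 1.14, 1.77 and 1.79 in the 24 h libraries. DNMT3B was the more abundant of the pair in all 9 libraries up to 2 h and DNMT3A in all 3 at 24 h.

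The forms of DNMT3B shown here, all from the same start-site group, differ in the exons they hold. DNMT3B-202 encodes 853 residues, DNMT3B-204 833 and DNMT3B-203 770. DNMT3B-203, known as DNMT3B3, lacks 2 neighbouring exons of the catalytic domain and is known as a form without methyltransferase activity of its own. Both exons are printed because they tell DNMT3B-204 from DNMT3B-203. They are exons 20 and 21 of DNMT3B-204, at chr20:31393144-31393213 and chr20:31394015-31394133 on the plus strand of GRCh37, and together they hold 189 bases or 63 codons.
DNMT3B-204 exon 20: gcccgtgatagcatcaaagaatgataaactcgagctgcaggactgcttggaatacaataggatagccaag
DNMT3B-204 exon 21: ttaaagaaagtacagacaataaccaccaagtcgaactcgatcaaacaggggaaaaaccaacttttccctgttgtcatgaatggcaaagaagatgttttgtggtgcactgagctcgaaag

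DNMT3B-202 has these exons and a further exon of 60 bases, its exon 10, at chr20:31381342-31381401. It is printed as an exon that DNMT3B-202 holds and DNMT3B-204 lacks.
DNMT3B-202 exon 10: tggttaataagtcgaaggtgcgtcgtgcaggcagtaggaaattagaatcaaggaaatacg

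DNMT3B-204, which holds the catalytic exons, was called lower at 24 h. It held 3.41, 2.90 and 3.54 FPKM in the 0 h libraries and 1.94, 2.84 and 2.61 after 1 h. After 2 h it held 1.40, 1.00 and 1.82, and after 24 h 1.24, 0.947 and 1.24. The log2 fold change at 24 h was -1.21 ± 0.23 (limma, adjusted p = 0.00246). Its 2 h and 24 h libraries were all below its 0 h libraries. DNMT3B-203, without those exons, held 1.94, 2.17 and 3.62 FPKM at 0 h and 2.59, 2.00 and 1.82 at 24 h, with overlapping ranges (-0.20 ± 0.27, limma adjusted p = 0.640).

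The share of DNMT3B-203 was 29.1, 28.9 and 43.0% in the 0 h libraries and 39.5, 36.4 and 49.0% after 1 h. After 2 h it was 60.5, 64.9 and 42.7%, and after 24 h 58.6, 61.6 and 47.7%. The 24 h shares were all above the 0 h shares (two-sided exact permutation p = 0.1, the smallest 3 against 3 can give). The share of DNMT3B-204 was 43.9 ± 6.46% in the 0 h libraries and 40.1 ± 3.57% after 1 h, then 23.3 ± 7.79% after 2 h and 29.9 ± 2.26% after 24 h. Usage of DNMT3B was not called at 24 h (limma, adjusted p = 0.0704) or at 2 h (adjusted p = 0.444). It was called under TPM (adjusted p = 0.0345) and with an FPKM minimum of 1 (0.0435), and its adjusted p was 0.308 at most. DNMT3B-202 stood at 0.762 ± 0.698 FPKM at 0 h and 0.286 ± 0.292 at 24 h and was not called.

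**Figure D3:**
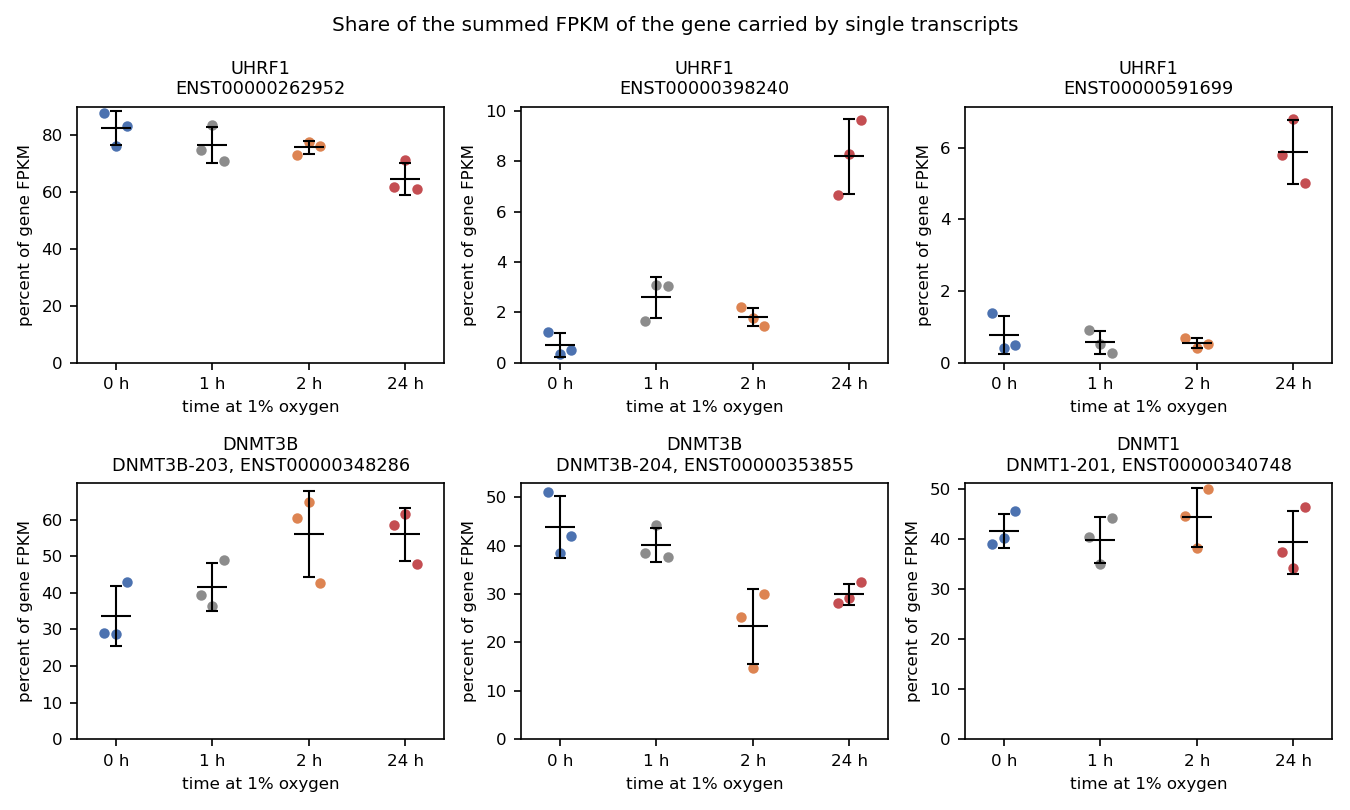
Percent of the summed FPKM of the gene (y axis) carried by 6 transcripts in every library by time at 1% oxygen (x axis), with mean and SD of 3 libraries. The leading UHRF1 transcript went from 82.5% at 0 h to 64.7% at 24 h, DNMT3B-203 from 33.6% to 56.0%, and DNMT1-201 overlapped at 41.6% and 39.3%.

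TET2 (ENSG00000168769, chr4:106067032-106200973 on the plus strand, GRCh37) was the TET gene with the larger difference of the 2 tested at 24 h. Its libraries held 1.29, 1.36 and 1.37 FPKM at 0 h, 1.46, 1.42 and 1.55 at 1 h and 1.87, 1.77 and 1.66 at 2 h. At 24 h they held 1.94, 2.46 and 3.50. Each later group lay above the 0 h range, and the 24 h libraries spread most. The log2 fold change at 24 h was 0.74 ± 0.17, a 1.67-fold higher level, which passed the p threshold and not the fold threshold (limma, adjusted p = 0.00331). The limma adjusted p missed 0.01 without any single 0 h library or 24 h replicate 3 (0.0101 to 0.0130), with the 6 libraries of the contrast alone (0.0200) and under TPM over transcripts of at least 300 bases (0.0126). It was 0.214 with exact matches alone, 0.541 with sums over transcripts past the filter and 0.925 under TPM. At 2 h it was 0.30 ± 0.17 (limma, adjusted p = 0.434).

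The TET2 total rested on transcripts of low level. Of the 131 transcripts, 20 carry the name TET2, and 1 of them passed the filter, TET2-203 (ENST00000380013) of 2002 residues. It held 0.000206, 0.992 and 0.579 FPKM at 0 h and 0.444, 0.321 and 1.44 at 24 h and was not called (0.30 ± 0.42, limma adjusted p = 0.640). With exact matches to the reference alone the TET2 log2 fold change was 0.36, and under TPM it was 0.03. The table also places RP11-556I14.1, another gene name, at the TET2 locus.

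The TET2 promoter is shown because its first RefSeq window holds CACGTG, in which the core letters ACGTG of the hypoxia response element occur on both strands. The window is chr4:105145625-105145924 on the plus strand of GRCh38.p14, and capitals mark the match.
TET2 promoter: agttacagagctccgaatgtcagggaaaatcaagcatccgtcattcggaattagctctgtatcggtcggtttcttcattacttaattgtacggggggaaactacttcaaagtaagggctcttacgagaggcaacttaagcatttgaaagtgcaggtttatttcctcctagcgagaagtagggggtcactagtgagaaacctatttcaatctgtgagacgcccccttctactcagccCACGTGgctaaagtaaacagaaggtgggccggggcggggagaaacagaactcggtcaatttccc

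Of all 35116 windows 21.4% hold ACGTG on either strand, so the letters are common. Among the 18 windows of the 7 genes 5 hold them, 2 of 2 for TET2, 2 of 6 for DNMT3A and 1 of 2 for TET3. The 2 DNMT3A windows with the letters overlap and share a single match. The 3 windows of UHRF1, the 3 of TET1 and the single windows of DNMT1 and DNMT3B hold none.

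TET3 (ENSG00000187605, chr2:74212037-74335303 on the plus strand, GRCh37) had the highest level of the TET genes. Its libraries held 3.33, 3.59 and 3.73 FPKM before hypoxia and 4.25, 4.45 and 3.39 after 1 h. After 2 h they held 4.81, 4.52 and 3.73, and after 24 h 3.42, 3.69 and 4.91. All 4 ranges overlapped. The log2 fold change at 24 h was 0.14 ± 0.16 (limma, adjusted p = 0.474), and it was -0.53 under TPM, not called. All 4 TET3 transcripts past the filter were models related to ENST00000409262 and none matched a reference exactly. None was called. The leading model, of 11932 bases, carried 47.7, 55.8 and 45.2% of TET3 at 0 h and 31.4, 33.6 and 35.2% at 24 h, with ranges apart, and usage was not called (limma, adjusted p = 0.134).

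TET1 (ENSG00000138336, chr10:70320094-70454244 on the plus strand, GRCh37) was the lowest of the 7 at every time. Its libraries held 0.183, 0.241 and 0.347 FPKM before hypoxia and 0.354, 0.389 and 0.513 after 1 h. After 2 h they held 0.205, 0.236 and 0.400, and after 24 h 0.481, 0.451 and 0.799. The 24 h libraries were above the 0 h libraries. In a fit without the filter the log2 fold change was 0.50 ± 0.15 (limma, adjusted p = 0.0298), not called. No single TET1 transcript passed the filter.

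Summed over the 3 genes, TET FPKM was 4.80, 5.19 and 5.45 at 0 h and 5.84, 6.60 and 9.22 at 24 h. DNMT FPKM, summed over DNMT1, DNMT3A and DNMT3B, was 78.5, 81.1 and 79.8 at 0 h and 53.2, 54.9 and 48.4 at 24 h. The ratio of DNMT to TET was thus 16.3, 15.6 and 14.6 at 0 h and 9.11, 8.32 and 5.25 at 24 h. At 1 h it was 13.0, 13.8 and 13.8 and at 2 h 10.3, 11.1 and 13.3, all between those ranges. TET FPKM was 6.07, 6.26 and 5.46 at 1 h and 6.88, 6.53 and 5.79 at 2 h, both overlapping the 24 h range. TET2 made up 25.1 to 26.9% of TET FPKM at 0 h and 33.2 to 38.0% at 24 h.

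No gene of the 6 was called at 1 h or at 2 h, where 0.00600% and 0.0180% of all gene names were called by limma. At an unadjusted p under 0.05, 0 of the 6 passed at either time, beside 4.61% of all gene names at 1 h and 15.3% at 2 h. The smallest adjusted p by limma in FPKM was 0.417, for DNMT3B at 2 h. Under TPM at 2 h DNMT3B and DNMT1 stood at -1.14 and -1.18 (limma, adjusted p = 0.0206 and 0.0308), against a median of -0.88 for all gene names. Over the alternatives UHRF1 at 2 h reached -1.19, and its lowest limma adjusted p was 0.0283. None of these was called. At 24 h relative to 2 h, UHRF1 was the 1 gene called, at -1.33 ± 0.10 (limma, adjusted p = 1.78e-06), beside 14.7% of all gene names. Under TPM this call was lost (-1.06, limma adjusted p = 0.121). DNMT1, DNMT3A and DNMT3B stood at -0.59 ± 0.09, 0.79 ± 0.19 and -0.63 ± 0.15, and each had an adjusted p of 0.00457 or less by limma. Over the alternatives the limma adjusted p of these 3 genes reached 0.706, 0.145 and 0.670. TET2 stood at 0.44 ± 0.17 (limma, adjusted p = 0.0526). The contrasts of 24 h with 0 h and with 2 h share the 24 h libraries.

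Genes that work with the 7 were taken from lists by role. Of 18 partners and relatives of the methyltransferases, 17 passed the filter, 5 were called lower at 24 h and none higher, beside 9.51% lower and 8.76% higher among all gene names, and the median was -0.41. The 5 were CDCA7 (-1.84 ± 0.18) and its remodelling partner HELLS (-1.39 ± 0.16), which help methylation of dense chromatin, PCNA, the histone H3 lysine 9 methyltransferase SUV39H2 (-1.21 ± 0.15) and TRDMT1, an RNA methyltransferase related to the DNMT genes (-1.09 ± 0.16). HELLS held 33.1 FPKM on average at 0 h and 12.6 ± 3.37 at 24 h, and CDCA7 50.5 and 14.1 ± 3.84. PCNA is on the S-phase list as well. TRIM28, HDAC2 and HDAC1, at -0.62, -0.41 and 0.064, were not called. No transcript of DNMT3L was above 0.

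Of 9 readers of methylated DNA, 9 passed the filter and 1 was called, beside 18.3% of all gene names. This was ZBTB4, a zinc finger repressor that binds methylated sites, which rose by 1.03 ± 0.12 from 4.45 to 9.64 ± 1.01 FPKM. MBD2, MBD3 and MBD1 stood at -0.27, 0.15 and 0.072. The median of the list was 0.20. UHRF2, the paralogue of UHRF1 and outside the naming rule, went from 14.8 to 19.1 ± 3.11 FPKM (0.35 ± 0.16, limma adjusted p = 0.0836) and was not called. The median of 8 partners of TET, 7 of which passed the filter, was 0.13, with 1 called in each direction, beside 8.76% higher and 9.51% lower among all gene names. IDH2, a mitochondrial maker of 2-oxoglutarate, rose by 1.62 ± 0.27, from 9.58 to 30.1 ± 1.40 FPKM. IDH3A, a subunit of the NAD-dependent isocitrate dehydrogenase, fell by 1.22, from 88.3 to 37.8 ± 5.11 FPKM. OGT, the O-GlcNAc transferase that binds TET proteins, stood at 0.42 and was not called.

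Of 11 genes of base excision repair and demethylation, 10 passed the filter and 2 were called, both higher, beside 18.3% called among all gene names. The list median was -0.43. With an adjusted p under 0.05 alone 5 were lower and 2 higher, beside 30.3% lower and 25.0% higher among all gene names. The 2 called were NEIL1, a DNA glycosylase (1.61 ± 0.19, from 2.98 to 10.0 ± 0.676 FPKM), and GADD45A, a stress gene proposed as a demethylation cofactor (1.15 ± 0.14, from 22.1 to 49.9 ± 4.88 FPKM). APEX1, the main abasic-site endonuclease, stood at -0.85 and NEIL2 at -0.54, neither called. TDG, the glycosylase that removes the oxidised bases made by TET enzymes, is named for its role after its values were seen, and went from 17.3 to 9.44 ± 0.892 FPKM (-0.84 ± 0.12, limma adjusted p = 0.000103), under the fold threshold. Of 14 genes of the methyl donor cycle, which makes S-adenosylmethionine, 11 passed the filter with a median of -0.015, and 1 was called in each direction, beside 8.76% higher and 9.51% lower among all gene names. MTRR, which reactivates methionine synthase, fell by 1.34, and AHCYL1, a relative of the S-adenosylhomocysteine hydrolase, rose by 1.03. MAT2A, which makes S-adenosylmethionine, stood at -0.96 ± 0.14 and was not called.

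**Figure D4:**
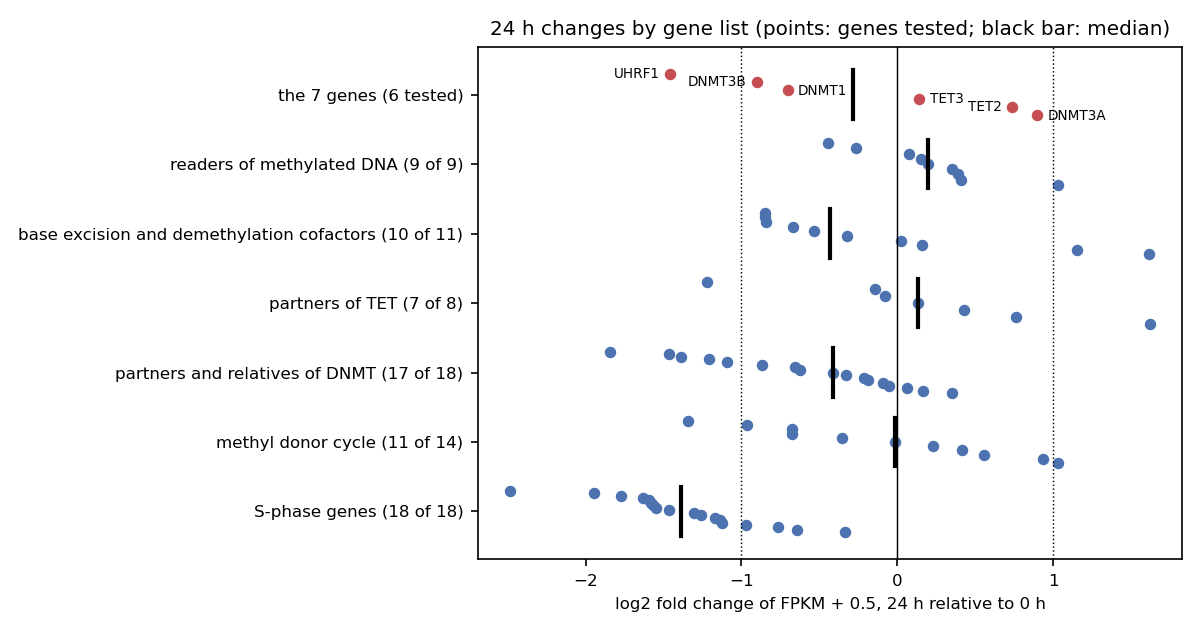
Log2 fold change of FPKM + 0.5 at 24 h relative to 0 h (x axis) for each tested gene of the 7 genes and of 6 gene lists (y axis), with list medians as black bars and the fold threshold as dotted lines. The S-phase list has the lowest median, -1.38, with UHRF1 at -1.46 beside it.

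The genes whose FPKM followed each of the 6 tested genes most closely were found by Pearson r over the 12 libraries among 14359 genes, as a description. They were SFXN2, DDX19A and LETM1 for UHRF1, each at r = 0.996. For DNMT1 they were BRCA1 (0.984), HYOU1 and ANAPC7, and for DNMT3B ATP6V0E2 (0.960), VPS18 and PIGQ. For DNMT3A they were CITED2 (0.970), AMZ2P1 and TCF7L2, for TET2 FOXO3 (0.982), DARS and SEC24A, and for TET3 CAMSAP2 (0.933), LATS1 and BDP1. The 12 libraries fall into 4 groups and are not 12 separate conditions.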

How the data were processed

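Polyadenylated RNA of HCT116 cells was sequenced in 12 strand-specific libraries. Per the labels and the methods, the authors aligned reads to hg19 with Mapsplice, assembled and merged transcripts with Cufflinks and deposited FPKM per transcript. No normalisation between libraries is stated. FPKM of transcripts with class code = or j was summed per gene name and taken without rescaling. Gene names above 0.5 FPKM in at least 3 libraries were tested (16680). limma 3.58.1 in R 4.3.3 was fitted to log2(FPKM + 0.5) over all 12 libraries with trend, so folds of low genes are understated, and p-values were adjusted by Benjamini-Hochberg. Isoform usage used Simes p-values per gene. Steps were tested on simulated data. The 7 genes, the lists and the tests were chosen with earlier results of these data known. Named transcripts were those past the filter that were among the 4 highest of a gene or passed the test. From each list up to 5 called genes with the largest change and up to 3 uncalled ones of high FPKM were named. Deviations of libraries with the same replicate number correlated at r above 0.1 in 10 of 18 pairs: all 3 of 0 h with 2 h and of 1 h with 2 h, 2 of 3 of 0 h with 1 h, 1 of 3 of 24 h with 0 h and with 2 h, and 0 of 3 of 24 h with 1 h. Exons came from GENCODE 44 on GRCh37, promoters from RefSeq on GRCh38.p14. Alternatives covered scaling, pseudocount, filters, class code, a replicate block and single libraries left out. Python 3.11.15 made tables and figures.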

Additional observations from a re-analysis of the deposited data

Results flagged for a closer look

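The change of UHRF1 differed between 2 h and 24 h. Tested directly as 24 h relative to 2 h, the log2 fold change was -1.33 (limma, adjusted p = 1.78e-06), and 3 of 3 libraries at 24 h were below all 2 h libraries. Its isoform usage also differed between these times (limma, adjusted p = 0.00216). Groups of 3 libraries are too small to be screened for single outlying samples.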

How the results depend on the processing

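UHRF1 kept its direction and its call at 24 h relative to 0 h under every alternative run, with log2 fold changes between -2.25 and -1.36. The count of called genes at 24 h, 1 as reported, was 3 under TPM, 2 under TPM over transcripts of at least 300 bases, 2 with sums over transcripts past the filter and 5 with an adjusted p under 0.05 alone. At 24 h relative to 2 h the count of 1 became 0 under TPM and 4 with the adjusted p alone. Genes with changed usage, 1 as reported, were 3 under TPM and 2 with an FPKM minimum of 1. With single libraries left out, counts ranged from 1 to 1 at 24 h relative to 0 h and to 2 h, from 0 to 0 at 1 h and 2 h, from 5 to 9 for transcripts (5 without 0 h replicate 2), from 1 to 2 for usage (2 without 24 h replicate 1, with DNMT3A added) and from 12 to 15 for transcripts with shares apart.

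Signs turned under TPM for TET3 at 24 h (-0.53), for DNMT3A, TET2 and TET3 at 2 h (-0.66, -0.36, -0.59), for DNMT1, DNMT3A, TET2 and TET3 at 1 h (-0.60, -0.35, -0.27, -0.33) and for TET3 at 24 h relative to 2 h (0.054). TPM also turned transcripts of DNMT3A (4279 bases, -0.058), TET2 (-0.14) and TET3 (8416 bases, -0.065; 9808 bases, -0.028). TPM set 215 gene names higher and 3893 lower at 24 h, against 1462 and 1586 in FPKM. Sums over transcripts past the filter turned TET3 at 1 h (-0.082) and TET2 at 24 h relative to 2 h (-0.34). Single libraries turned DNMT3A at 2 h (-0.082 to 0.23), DNMT1 at 1 h (-0.022 to 0.087), DNMT3B-203 (-0.34 to 0.034), TET2-203 (-0.15 to 0.64) and TET3 of 9808 bases (-0.047 to 0.87). None of the values that turned was called, and beyond TPM's own rescaling the cause was not tested.

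With replicate number as a block, 1 gene was called at 24 h relative to 0 h and relative to 2 h, 0 at 1 h and 2 h, and 9 transcripts and 1 gene for usage, as without it. At 2 h, where all 3 pairs with 0 h correlated above 0.1, the smallest blocked adjusted p by limma was 0.327. Of the 12 libraries 9 correlated best with their own number, a hint from the data and not from the design. TET3 had no value with exact matches alone and TET1 none with the filter, since too few libraries passed it. The deposited FPKM hold no read counts, so no counting error is given for TET1 or for transcripts near 0.5 FPKM.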

Other observations

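Of 9 epithelial markers, 8 passed the filter, and at 24 h 3 were called higher and none lower, with a median of 0.42. Among all gene names 8.76% were called higher and 9.51% lower. CDH1, the adhesion protein E-cadherin, rose by 1.76 ± 0.13, from 7.42 to 26.3 ± 1.72 FPKM, and the tight junction genes CLDN4 and CLDN3 rose by 1.60 ± 0.27 and 1.31 ± 0.28 (limma). The keratins KRT8 and KRT18 stood at -0.16 and -0.20 and KRT19 at 0.99, none called. EPCAM and CDX2, outside the naming rule, stood at -0.28 and -0.39, not called. Summed fibroblast marker FPKM was between 1.85 and 2.16 at 0 h and between 5.81 and 8.84 at 24 h. Nearly all of it was COL1A1, which rose by 1.59 ± 0.18, while LUM was at 0 and COL1A2 and DCN at 0 in all 24 h libraries.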
